A study of Arabidopsis with 36 samples.

Results

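The 56 genes described here are nuclear Arabidopsis genes for proteins of the cytosolic ribosome, measured in polysome-associated and total RNA of seedlings. They are the rows of the deposited gene table for a written list of loci coding for proteins of the small and large cytosolic subunit. The list left out RPL39 and RPL41, and 171 other such loci are counted separately below. It was set by no rule on measured values, but was chosen with earlier results of these data known. All 56 loci were found among the 32801 nuclear genes of the table, and all 56 passed the filter on low values that kept 20171 nuclear genes for testing. The reference gene table gave protein names for 26 of them, 11 of the small (40S) and 15 of the large (60S) subunit, and the other 30 are given below by locus or symbol alone. BBC1 was counted with the large subunit, as ribosomal protein L13, although a synonym in the reference table calls it a 40S protein.

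The cytosolic ribosome is built from rRNA and proteins that are made in the cytoplasm, imported into the nucleolus for assembly and exported again as subunits. In Arabidopsis each of its proteins is encoded by a small family of paralogous genes, and mutants in single family members often show pointed leaves, slow growth or embryo arrest. In many plants and animals the translation of these mRNAs varies with growth conditions, so their place in a polysome gradient is a common readout. A gradient parts mRNAs that carry many ribosomes (heavy polysomes) from those that carry few (light polysomes).

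The lines compared were an AtY34 overexpressor and its wild type, Col-2, each with 3 libraries of heavy polysomes, 3 of light polysomes and 3 of total RNA, which makes 18 libraries in 6 groups. All came from whole 11-day seedlings given a mock treatment, with no other treatment in these groups. The sources used here do not give the promoter of the transgene, the number of transformed plants behind the line or the gene that AtY34 stands for. The level of the overexpressed gene was therefore not checked. Samples of an AtYchF1 overexpressor and an AtYchF1 knockdown mutant also belong to the series and are not analysed here. The labels do not say whether replicates were grown separately. A p-value below therefore compares a difference with the spread between libraries, and that spread may be technical.

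Values are TPM, a transcript level per length and per library, divided by a factor per library ("scaled TPM"). TPM keep no read number, so depth is unknown. Libraries had 16035 to 19398 loci with a value above 0. Scaling factors ran from 0.736 to 1.39 and were lowest in total RNA, where the non-coding RNA AT1G15405 held 14.9 to 19.9% of all TPM, against 0.272 to 2.92% in polysome libraries. All 5 listed markers of green shoot tissue were detected, summing to 11271 to 19356 scaled TPM, and the 3 listed pollen markers were at 0 in all 18 libraries. The 4 listed seed storage genes summed to between 0 and 9.54 scaled TPM in the AtY34 line and between 1.99 and 86.5 in wild type, where replicate 2 of each fraction was the highest. Each log2 fold change compares mean log2(scaled TPM + 1), which understates changes at low levels, and adjusted p-values are from limma, adjusted over the 20171 genes. In whole seedlings, fewer cells of a type and less RNA per cell cannot be told apart.

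The 56 genes were abundant, with a median mean level of 108 scaled TPM against 6.43 over all genes tested, and 51 of them averaged at least 20. RPS13A, a small subunit protein gene also known as POINTED FIRST LEAF 2, averaged 301 scaled TPM with single libraries from 174 to 466. AT5G20290 averaged 293 and P40, which encodes protein SA of the small subunit, 272. EMB2296 and AT5G15200 averaged 239 and 238 scaled TPM. The ranges of these leading genes overlapped, so their order is not a difference beyond their spread.

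At the bottom 5 genes lay far below the rest. RPL16A, for L11 of the large subunit, averaged 15.3 scaled TPM, AT5G39850 9.02, RPL10B 8.02, RPSAb 4.50 and AT2G40010 2.15. AT2G40010 was listed at 0 in all 3 total RNA libraries of the AtY34 line, and in wild type total RNA it had 0, 4.18 and 2.51 scaled TPM. Of the 1008 values of the 56 genes in 18 libraries 11 were 0, and 1 of them belonged to an otherwise well expressed gene: RPS10B, for S10 of the small subunit, was at 0 in replicate 3 of wild type total RNA and had 50.9, 34.2 and 31.2 scaled TPM in total RNA of the AtY34 line. Its log2 fold change in wild type heavy polysomes against total RNA was 1.11 (SE 0.96), and -0.60 without that library.

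**Figure D1:**
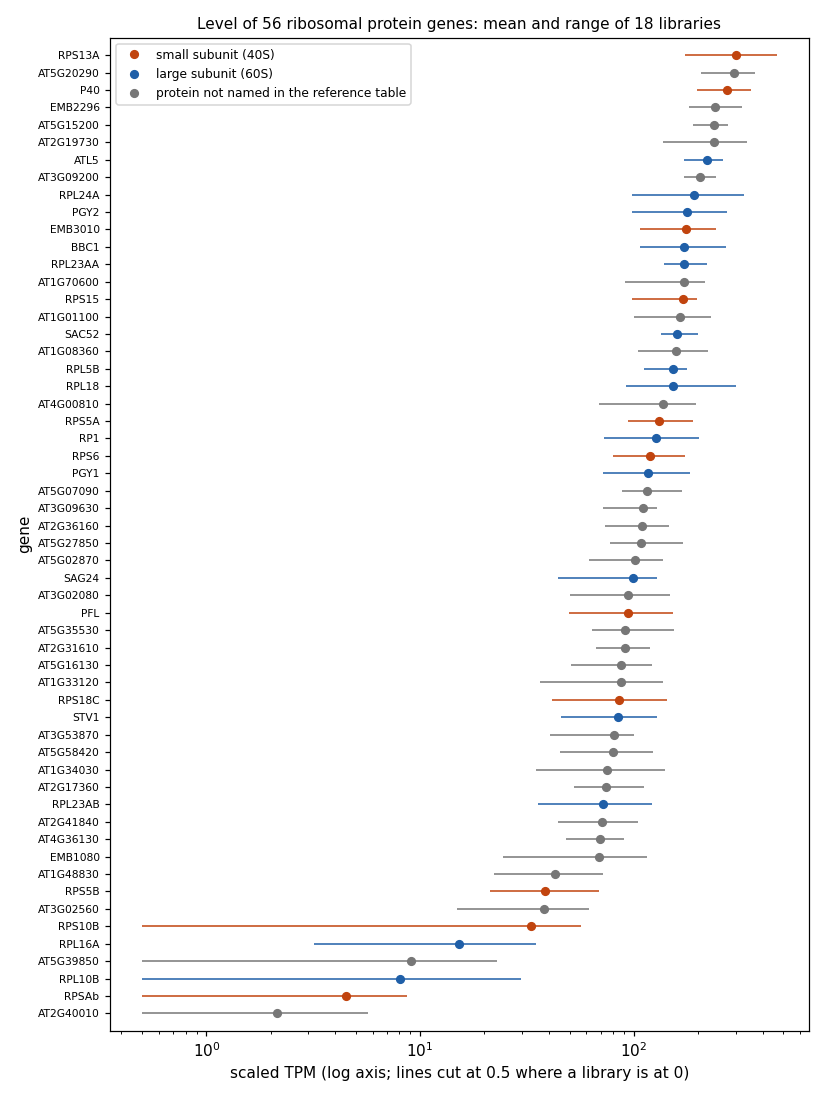
Mean level of each of the 56 genes over 18 libraries in scaled TPM on a log axis, with lines from the lowest to the highest library, coloured by subunit where the reference table names the protein. 51 genes average at least 20 scaled TPM, and 5 trail well below the others.

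Within families the paralogs contributed very unequally in some cases and evenly in others. Shares are of the summed scaled TPM of the named members, averaged over 18 libraries, and paralogs with near-identical sequence may have had reads split between them by the quantification, so each share is uncertain to that extent. P40 made up 98.4% ± 0.84 (SD over 18 libraries) of the SA pair, and RPSAb the remainder. Among the L10 genes, whose yeast counterpart joins the large subunit late in its assembly, SAC52 held 60.3% ± 6.72, SAG24 36.7% ± 5.72 and RPL10B 2.96% ± 2.72. RPS5A, the more abundant S5 gene, held 77.7% ± 4.89 of its pair and RPL23AA 70.7% ± 7.10 of the L23a pair.

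Other pairs were closer to even. EMB3010 held 59.5% ± 4.93 of the S6 pair, whose protein is phosphorylated by the S6 kinases of the TOR pathway, and ATL5 59.2% ± 4.35 of the L5 pair, whose counterparts in yeast and humans bring 5S rRNA into the large subunit. PFL, the POINTED FIRST LEAF gene, held 52.8% ± 9.78 of its sum with RPS18C, the other S18 gene named in the reference table; genes for S18 without a name there are not in this sum. The L24 pair was the one in which shares moved most with the fraction: RPL24A held 67.5% ± 5.07 in heavy polysomes of the AtY34 line and 64.9% ± 3.08 in those of wild type, 81.8% ± 2.30 and 75.8% ± 5.56 in light polysomes, and 60.1% ± 1.70 and 61.7% ± 16.4 in total RNA (SD, n = 3 each). STV1 held the rest, and in both lines its share was higher in each heavy polysome library than in each light one.

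Heavy polysomes were compared with light polysomes over both lines, which asks whether an mRNA sits with many or with few ribosomes. Of the 56 genes, 1 was higher and 1 lower in heavy polysomes at an adjusted p under 0.05, and in this comparison 4.68% of all genes tested and 15.4% of the genes averaging at least 20 scaled TPM passed. The 2 genes were AT5G02870, higher by 0.60 on the log2 scale, and RPL18, lower. At an unadjusted p under 0.05, 3 were higher and 9 lower. Among all genes tested 7.05% were higher and 10.7% lower, 17.8% in either direction. The median of the 56 genes was -0.07 (24 positive, 32 negative) and that of all genes tested -0.06; with TPM as deposited, without the library factors, the 2 medians were 0.09 and 0.05.

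AT5G02870 had 131, 137 and 123 scaled TPM in heavy polysomes of the AtY34 line and 113, 82.5 and 125 in those of wild type. In light polysomes it had 61.5, 86.2 and 78.2 in the AtY34 line and 80.9, 75.5 and 81.1 in wild type. Within each line, all 3 heavy libraries were above all 3 light ones, and across lines the sets overlapped through the lowest wild type heavy library. The log2 fold change was 0.60 (SE 0.14, adjusted p = 0.0153), and the gene passed in each of the 12 fits that left out 1 library. Taken separately, the AtY34 line gave 0.80 (adjusted p = 0.0641) and wild type 0.41 (adjusted p = 0.42).

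RPL18 encodes L18 of the large subunit. It had 124, 152 and 145 scaled TPM in heavy polysomes of the AtY34 line and 129, 92.3 and 117 in those of wild type, against 300.4, 185 and 156 in light polysomes of the AtY34 line and 227, 190.1 and 162 in those of wild type. All 6 heavy libraries lay below all 6 light ones. No other of the 56 genes showed this, but the share of all genes tested that did was not counted. The log2 fold change was -0.66 (SE 0.17, adjusted p = 0.0283). The call is close to the threshold: it was lost in 7 of the 12 fits that left out 1 library, namely replicate 1 of AtY34 light, replicates 1 and 2 of wild type light, replicates 1 and 3 of AtY34 heavy and replicates 2 and 3 of wild type heavy, with adjusted p from 0.0508 to 0.0739, and with TPM as deposited (adjusted p = 0.105).

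Several genes were close to the threshold without passing it. STV1, an L24 gene known as SHORT VALVE1 whose protein helps ribosomes start again after short upstream reading frames, had 92.9, 71.9 and 99.9 scaled TPM in heavy polysomes of the AtY34 line and 68.7, 119.8 and 112 in those of wild type. In light polysomes it had 60.2, 57.7 and 45.5 and 56.4, 72.4 and 62.9 in the same order of lines. Heavy libraries were above light ones within the AtY34 line, and in wild type 1 heavy library stood below the highest light one. The log2 fold change was 0.64 (SE 0.19, adjusted p = 0.0659). It passed with TPM as deposited (adjusted p = 0.0147), with quantile normalization (0.0294) and when the fit held the 12 polysome libraries alone (0.0490). Of the 12 fits that left out 1 library, STV1 passed in 1 and did not pass in 11, with adjusted p up to 0.146. Its paralog RPL24A gave -0.29 (SE 0.22, adjusted p = 0.527) with overlapping libraries.

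PGY1, the PIGGYBACK1 gene for L10a, was first known for enhancing a leaf patterning mutant. It had 78.0, 134 and 87.3 scaled TPM in heavy polysomes of the AtY34 line and 82.9, 95.9 and 71.5 in those of wild type, against 114, 121 and 167 and 184, 135 and 118 in light polysomes of the AtY34 line and wild type. In wild type all heavy libraries were below all light ones, and in the AtY34 line 1 heavy library was within the light ones. The log2 fold change was -0.61 (SE 0.17, adjusted p = 0.0504). Of the 12 fits that left out 1 library, PGY1 passed in 1, that without replicate 2 of AtY34 heavy (adjusted p = 0.0191). In the other 11 it did not pass, with adjusted p up to 0.128. AT5G27850 gave -0.49 (SE 0.15, adjusted p = 0.078), EMB1080 -0.58 (SE 0.24, adjusted p = 0.191), AT1G01100 0.41 (SE 0.16, adjusted p = 0.18) and AT3G09630 0.21 (SE 0.14, adjusted p = 0.481).

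**Figure D2:**
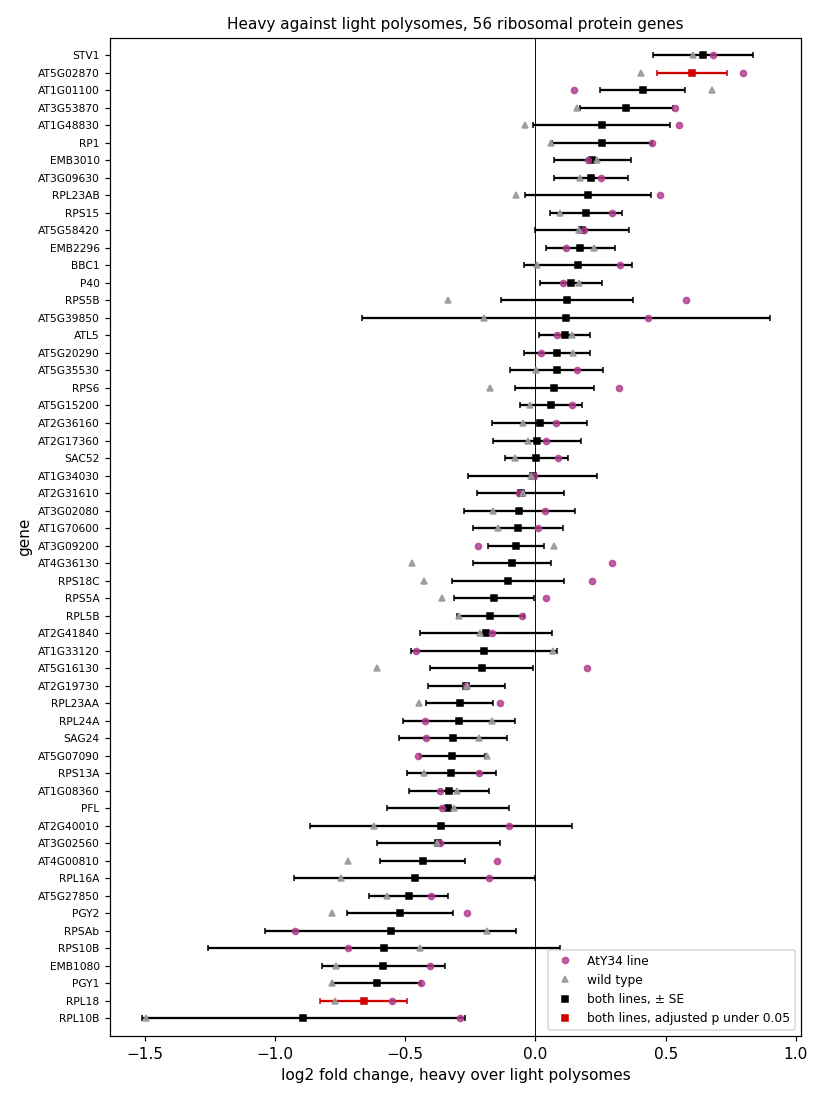
Log2 fold change of heavy over light polysomes for the 56 genes over both lines (squares, ± SE) and within the AtY34 line (circles) and wild type (triangles). AT5G02870 and RPL18, in red, are the 2 genes past an adjusted p of 0.05, and most values lie within 0.5 of 0.

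Within single lines none of the 56 genes passed in limma. For the AtY34 line 3 were higher and 2 lower in heavy polysomes at an unadjusted p under 0.05. Among all genes tested 4.69% were higher and 7.2% lower, 11.9% in either direction, and 0.689% passed the adjusted threshold. The median of the 56 was 0.03, with 30 positive, against -0.04 over all genes tested. For wild type 3 were higher and 9 lower at an unadjusted p under 0.05. Among all genes tested 4.67% were higher and 7.05% lower, 11.7% in either direction, and 0.957% passed the adjusted threshold. The median of the 56 was -0.17, with 17 positive, against -0.06 over all genes tested. With TPM as deposited the medians of the 56 were 0.18 in the AtY34 line and 0.00 in wild type. The lower values in wild type included RPL18 at -0.77, PGY1 at -0.78 and PGY2, for L9 of the large subunit, at -0.78 (adjusted p = 0.267), and the higher ones AT1G01100 at 0.68 (adjusted p = 0.22).

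**Figure D3:**
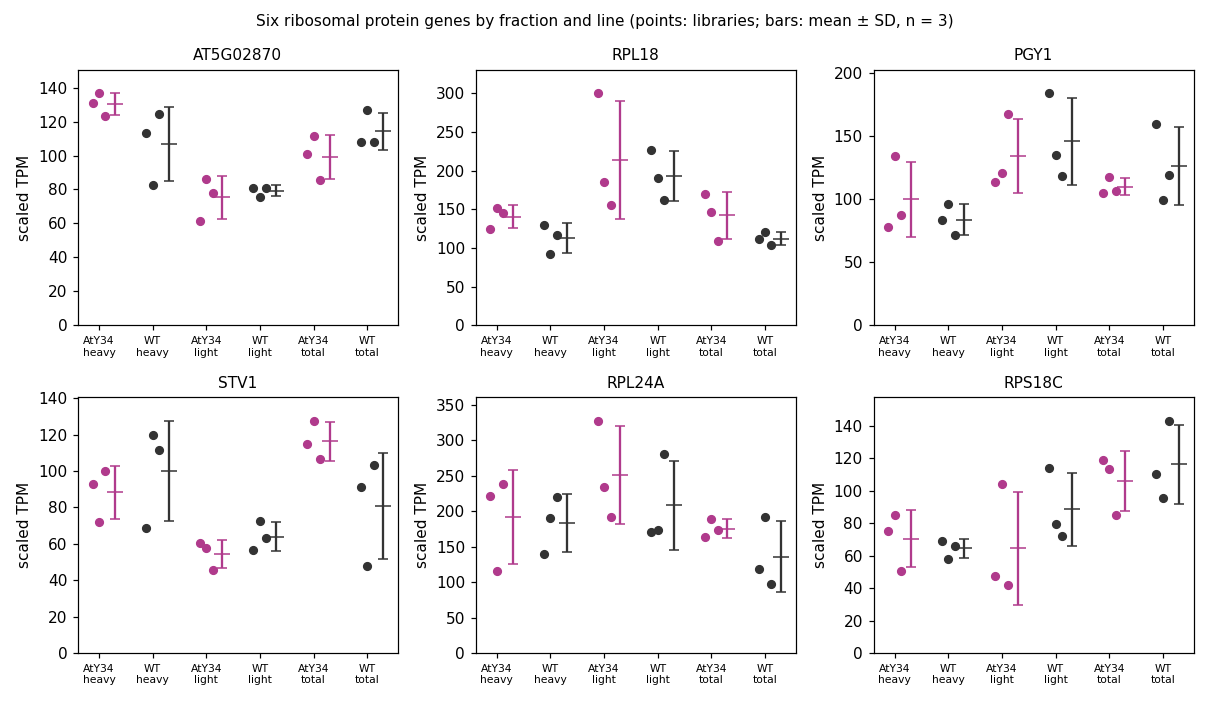
Scaled TPM of 6 genes in every library, by fraction and line, with mean ± SD (n = 3) beside the points. AT5G02870 and STV1 average higher in heavy than in light polysomes, and RPL18 and PGY1 lower (AT5G02870 and RPL18 passed the test). Heavy and light libraries of RPL24A overlap in both lines. Those of RPS18C overlap in the AtY34 line, and in wild type all heavy ones are below all light ones.

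The change from light to heavy polysomes was then compared between lines as an interaction, AtY34 minus wild type. None of the 56 genes passed, as none of all 20171 genes did (0%). At an unadjusted p under 0.05, 1 was higher and 0 lower, beside 1.92% and 1.5% of all genes tested (3.43% in either direction). The median interaction of the 56 genes was 0.16, with 39 positive, against 0.01 over all genes tested and -0.04 over genes averaging at least 20 scaled TPM. Without replicate 1 of AtY34 light the median was 0.05, with 30 of 56 positive. The gene at an unadjusted p under 0.05 was AT4G36130, at 0.77 (SE 0.30, adjusted p = 1). It had 87.1, 73.0 and 74.0 scaled TPM in heavy and 53.9, 67.4 and 69.8 in light polysomes of the AtY34 line, and 63.8, 48.6 and 62.7 in heavy and 74.4, 83.4 and 85.2 in light polysomes of wild type. AT5G16130 gave 0.81 (SE 0.40) and RPS5B 0.91 (SE 0.51), neither past the threshold.

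Polysome fractions were also set against total RNA, which shares the heavy and light libraries with the comparison above. None of the 56 genes passed for heavy polysomes against total RNA over both lines, where 0.947% of all genes tested did. At an unadjusted p under 0.05 none was higher and 8 were lower, beside 6.43% and 6.67% of all genes tested (13.1% in either direction). For light polysomes against total RNA none passed either, with 0.456% of all genes tested passing. At an unadjusted p under 0.05, 6 were higher and 9 lower, beside 7.69% and 4.19% of all genes tested (11.9% in either direction). The medians of the 56 were -0.09 for heavy and -0.07 for light polysomes against total RNA, beside 0.06 and 0.10 over all genes tested. These signs depend on the scaling: with TPM as deposited, where AT1G15405 takes a large share of total RNA, the medians were 0.53 and 0.40 beside 0.52 and 0.45 over all genes tested, and 25 and 10 of the 56 genes passed as higher, beside 17.3% and 5.72% of all genes tested. With scaled TPM, genes averaging at least 20 passed more often than all genes tested, at 3.2% for heavy and 1.35% for light polysomes. Their shares with TPM as deposited are not given here, so the 25 and 10 have no share at a like level beside them. The medians of the 56 were below those of all genes tested with scaled TPM and close to them with TPM as deposited. A factor per library moves all genes alike, apart from the pseudocount, which understates changes at low levels. All genes tested had a median level of 6.43 scaled TPM against 108 for the 56. With scaled TPM and a pseudocount of 0.1, the medians of all genes tested were 0.12 for heavy and 0.17 for light polysomes. Those of the 56 stayed at -0.09 and -0.07. The part of level in this gap was not tested.

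In heavy polysomes against total RNA over both lines, the lowest values among genes averaging at least 20 scaled TPM were those of RPS18C, a small subunit gene, AT3G02560 and EMB1080. RPS18C had 75.2, 85.0 and 50.8 scaled TPM in heavy polysomes of the AtY34 line and 69.1, 58.1 and 66.0 in those of wild type, against 119, 114 and 85.2 and 110.1, 95.5 and 143 in their total RNA. All 6 heavy libraries were below all 6 total RNA libraries, with a narrow gap between the highest AtY34 heavy and the lowest AtY34 total value. The log2 fold change was -0.71 (SE 0.21, adjusted p = 0.134), that of AT3G02560 -0.70 (adjusted p = 0.187) and that of EMB1080 -0.65 (adjusted p = 0.218). Light polysomes against total RNA gave 0.66 for RPL18 (adjusted p = 0.0963), 0.56 for RPL24A (adjusted p = 0.312) and -0.68 for STV1 (adjusted p = 0.155), the last of which passed without replicate 2 of wild type total RNA (-0.85, adjusted p = 0.0420).

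Line by line, none of the 56 genes passed against total RNA. Of all genes tested, 0.0644% passed for heavy and 0.109% for light polysomes of the AtY34 line, and 0.129% and 0.104% for those of wild type. In AtY34 heavy polysomes 2 of the 56 were higher and 3 lower at an unadjusted p under 0.05. Among all genes tested 4.16% were higher and 4.73% lower, 8.9% in either direction. In AtY34 light polysomes 3 were higher and 5 lower, beside 5.31% and 3.08% (8.39% in either direction). In wild type heavy polysomes none was higher and 10 were lower, beside 4.66% and 5.21% of all genes tested (9.86% in either direction). In wild type light polysomes 4 were higher and 5 lower, beside 6.18% and 3.22% (9.39% in either direction). In the AtY34 line the lowest values were AT3G02560 in heavy polysomes at -1.20 (adjusted p = 0.239) and STV1 in light polysomes at -1.09 (adjusted p = 0.223). For the interactions with the line, none of the 56 passed for heavy or light polysomes against total RNA, where 0.00496% and 0.00992% of all genes tested did, and 3 and 4 of the 56 had an unadjusted p under 0.05, beside 5.07% and 5.4% of all genes tested.

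Overexpression of AtY34 was compared with wild type in each fraction. None of the 56 genes passed in limma in heavy polysomes, light polysomes or total RNA, where 0.0198%, 0.0347% and 0.0793% of all genes tested did. At an unadjusted p under 0.05, 2 of the 56 were higher in heavy polysomes, 1 in light polysomes and 1 in total RNA. None was lower. Of all genes tested 2.08%, 2.03% and 4.33% were higher in the same order of fractions. The lower shares were 2.38%, 2.55% and 3.79%, and those in either direction 4.47%, 4.59% and 8.13%. The 95% interval of the log2 fold change lay within 1 of 0, that is within a doubling or a halving, for 43 of the 56 genes in heavy polysomes, 47 in light polysomes and 42 in total RNA. The median half-width of these intervals was 0.524 over the 56 genes, from a median SE of 0.249.

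In heavy polysomes most of the 56 genes averaged higher in the AtY34 line. Their median log2 fold change was 0.13, with 41 positive and 15 negative, against 0.00 over all genes tested and -0.02 over genes averaging at least 20 scaled TPM. In light polysomes the median was -0.06, with 23 positive, and in total RNA 0.00, with 28 positive. The heavy value was 0.18 with TPM as deposited and 0.13 with quantile normalization, and 0.04 with 32 positive when replicate 2 of AtY34 heavy was left out, so 1 library carries much of it. That library had the highest scaling factor of the 18 (1.39). The seed storage sums given above were also higher in wild type than in the AtY34 line on average in every fraction, and their part in these values was not tested.

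The 2 genes with an unadjusted p under 0.05 in heavy polysomes were AT4G00810 and AT5G16130. AT4G00810 had 135, 135 and 171 scaled TPM in the AtY34 line and 89.7, 109.9 and 98.4 in wild type, without overlap, for a log2 fold change of 0.56 (95% interval 0.07 to 1.04, adjusted p = 1). AT5G16130 had 104, 86.3 and 86.6 in the AtY34 line and 73.0, 57.8 and 52.0 in wild type, also without overlap, for 0.60 (95% interval 0.01 to 1.19, adjusted p = 1). Both averaged lower in the AtY34 line in total RNA, AT4G00810 with 114, 68.5 and 140.4 against 126, 169 and 131 in wild type and AT5G16130 with 67.5, 121 and 84.5 against 107, 122 and 74.6, and these libraries overlapped. RPS5B, the less abundant S5 gene, gave 0.74 in heavy polysomes (SE 0.36), with 34.7, 37.4 and 61.8 scaled TPM in the AtY34 line and 28.9, 21.3 and 26.6 in wild type. At the other end AT3G02560 gave -0.68 (SE 0.33) in heavy and -0.69 (SE 0.33) in light polysomes.

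In light polysomes the gene with an unadjusted p under 0.05 was ATL5, with 218, 261 and 208 scaled TPM in the AtY34 line and 188, 194 and 171 in wild type. Its libraries did not overlap, and the log2 fold change was 0.30 (95% interval 0.01 to 0.60, adjusted p = 1). In total RNA it was STV1, with 115, 128 and 106 in the AtY34 line and 91.3, 47.9 and 103 in wild type, for 0.59 (95% interval 0.02 to 1.16, adjusted p = 0.603). The wild type spread of STV1 comes largely from replicate 2, and without it the difference was 0.25.

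**Figure D4:**
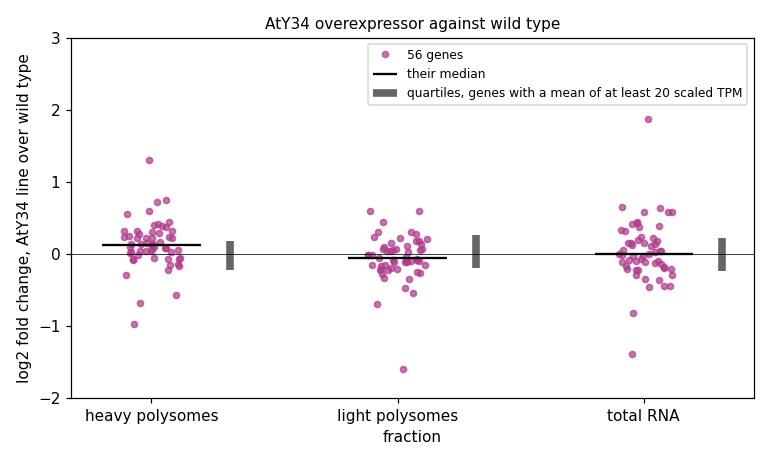
Log2 fold change of the AtY34 line over wild type for the 56 genes in heavy polysomes, light polysomes and total RNA (points), with their median (line) and the quartiles of genes averaging at least 20 scaled TPM (grey bar). The medians are 0.13, -0.06 and 0.00, and no point passed an adjusted p of 0.05.

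The genes that the reference table names for each subunit were also summed per library. The 11 small subunit genes summed to 1403, 1365 and 1391 scaled TPM in heavy polysomes of the AtY34 line and to 1237, 1195 and 1294 in those of wild type. The 15 large subunit genes summed to 1888, 2049 and 1835 in the AtY34 line and to 1639, 1777 and 1706 in wild type. In both sums all 3 AtY34 heavy libraries were above all 3 wild type ones, whereas in light polysomes and total RNA the lines overlapped. The 30 genes with no protein name in the reference table summed to 3319, 3559 and 3338 in heavy polysomes of the AtY34 line and to 3474, 3038 and 3218 in those of wild type, and these libraries overlapped. The sums of the other listed ribosomal protein genes (171 loci) overlapped there too, at 17478, 17004 and 16919 in the AtY34 line and 18306, 15361 and 17085 in wild type. The sums of 3 libraries against 3 carry no p-value here, since the genes were chosen as a group with results known.

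The ratio of the large to the small subunit sum was higher in polysome libraries than in most total RNA libraries. It averaged 1.39 ± 0.0982 in heavy polysomes of the AtY34 line and 1.38 ± 0.0960 in those of wild type, 1.51 ± 0.103 and 1.49 ± 0.224 in light polysomes, and 1.22 ± 0.165 and 1.19 ± 0.0668 in total RNA (SD, n = 3 each). In wild type the polysome and total libraries did not overlap, and in the AtY34 line 1 total RNA library, at 1.41, was within the polysome values. The ratio depends on the genes named and not on the library scaling. In light polysomes against total RNA over both lines, the median log2 fold change was -0.21 for the small subunit genes (2 of 11 positive) and 0.06 for the large subunit genes (9 of 15 positive).

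**Figure D5:**
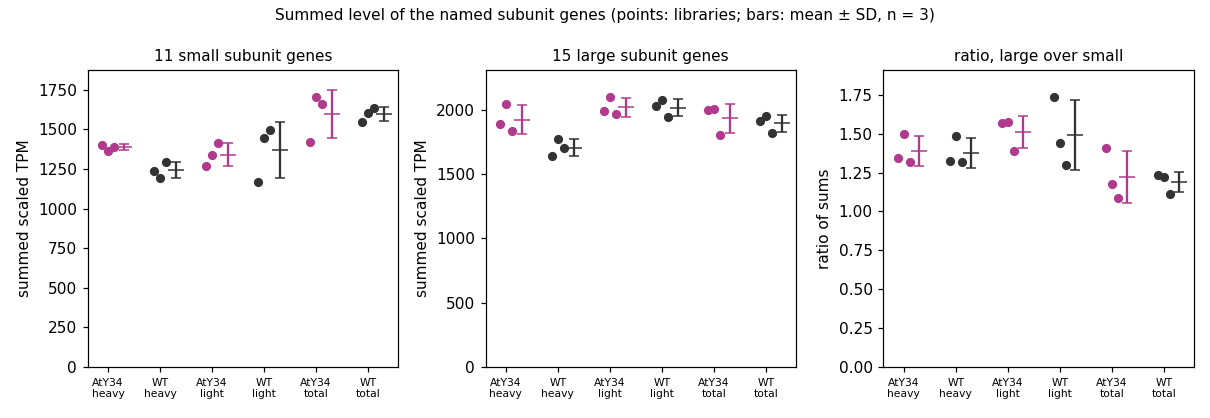
Summed scaled TPM of the 11 small and 15 large subunit genes named in the reference table, and the ratio of the large to the small sum, for each library by fraction and line with mean ± SD (n = 3). In heavy polysomes the AtY34 sums lie above the wild type ones, and the mean ratio is lower in total RNA of both lines than in their polysome fractions.

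Together the 56 genes took 1.16% ± 0.179 of nuclear TPM in heavy polysomes of the AtY34 line and 1.03% ± 0.0249 in those of wild type. In light polysomes they took 1.11% ± 0.120 in the AtY34 line and 1.09% ± 0.0378 in wild type, and in total RNA 0.835% ± 0.0186 and 0.812% ± 0.0241 (SD, n = 3 each). The lower share in total RNA goes with AT1G15405: without that RNA in the total, the shares in total RNA were 1.12% ± 0.0958 in the AtY34 line and 1.09% ± 0.0384 in wild type, within the range of the polysome libraries.

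The spread between replicates was measured within each group. Over the 51 genes averaging at least 20 scaled TPM the median coefficient of variation within a group was 18.1%, against 20.3% over 584 genes between the quartiles of their levels and 24.5% over the 4370 genes averaging at least 20. ATL5 was the steadiest of the 51, at 5.41%, followed by AT3G09200 at 7.55% and SAC52 at 9.54%, and RPS10B varied most, at 50.6%. Across the 18 libraries the 51 genes moved together only weakly: the median Pearson correlation over their 1275 pairs was 0.079, against 0.002 over all pairs of genes averaging at least 20, a description over pairs that share the same libraries.

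Other genes of the ribosome were counted in the same comparison. A written list of 171 other loci for cytosolic ribosomal proteins had 155 genes tested, and in heavy against light polysomes over both lines none of them was higher and 14 were lower at an adjusted p under 0.05, beside 1 higher and 1 lower of the 56. Among all genes tested 1.88% were higher and 2.8% lower, and among genes averaging at least 20 scaled TPM 6.89% were higher and 8.54% lower. The median of the other 155 was -0.25, with 39 positive, against -0.07 for the 56, a difference that was not tested. The lowest of those called were AT4G33865 at -1.57 (adjusted p = 0.000198), AT5G27700 at -1.39 (adjusted p = 0.00669), AT3G06680 at -1.38 (adjusted p = 0.0255) and AT3G44010 at -1.22 (adjusted p = 0.00134). Of 41 listed genes for ribosome biogenesis factors, 1 was higher and none lower: AT1G56110, named NOP56 in the list, a core protein of the box C/D RNA-protein particles that guide rRNA methylation, at 1.38 (adjusted p = 0.0139). The median of the 41 was 0.21, with 29 positive.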

How the data were processed

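TPM by gene and by transcript were deposited by the authors. Per the submitters' processing notes FastQC, MultiQC and STAR were used on TAIR10, with no versions or further steps given. The deposited TPM are named as merged Salmon values. Per the labels' protocols libraries were strand-specific and rRNA-depleted. Nuclear TPM were divided by each library's median ratio over the 9431 genes at 1 TPM or more everywhere. Genes reaching 1 TPM in 3 or more libraries entered limma 3.58.1 (R 4.3.3), two-sided, with a pseudocount of 1, a mean per group, a trended prior, 12 residual degrees of freedom and Benjamini-Hochberg adjustment per comparison. The fit was tested on simulated data. Alternatives were no scaling, quantile normalization, a pseudocount of 0.1, no filter, a replicate block over all libraries or within lines, only the libraries compared, and each replicate left out. The 56 genes, lists and tests were chosen with earlier results of these data known. Named genes were those past the threshold, the 3 highest and 3 lowest per comparison averaging at least 20 scaled TPM, the 5 highest and 5 lowest by level, those at 0 in a group, and listed paralogs of called genes; genes named for their share, steadiness or other list were added after their values were seen. Columns tied to no sample, 18 for genes and 54 for transcripts, were not used. Sequences and promoter motifs were not analysed here.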

Additional observations from a re-analysis of the deposited data

How the results depend on the processing

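In heavy against light polysomes over both lines, AT5G02870 passed under every alternative and when each of the 12 libraries was left out. The number of the 56 genes called ranged from 1 to 3 when 1 library was left out. For light polysomes against total RNA over both lines it ranged from 0 to 1. With all 18 libraries 4.68% and 0.456% of all genes tested passed in these comparisons. Shares of all genes with 1 library left out are not given here. With TPM as deposited, the calls against total RNA, all higher, were 5 for AtY34 heavy polysomes (3.54% of all genes tested passed), 4 for wild type heavy (3.91%), 2 for wild type light (0.317%), and over both lines 25 for heavy (17.7%) and 10 for light polysomes (5.84%). The median of all genes tested over both lines was then 0.52 for heavy and 0.45 for light polysomes, against 0.06 and 0.10 with scaled TPM. Shares of genes averaging at least 20 scaled TPM under this setting are not given here. AT2G19730 reversed to 0.030 in AtY34 heavy polysomes against total RNA with TPM as deposited. When 1 library was left out, RPS10B ranged from -0.60 to 2.11 in heavy and from -0.16 to 2.55 in light polysomes against total RNA in wild type, from -0.53 to 0.82 in heavy polysomes over both lines, and from -2.56 to 0.14 and -2.29 to 0.42 in the interactions. SAG24 ranged from -0.54 to 0.090 in AtY34 against wild type heavy polysomes. As a share of all deposited TPM, organelles included, the 56 genes took 0.826% and 0.732% in heavy polysomes of the AtY34 line and wild type, 0.747% and 0.709% in light polysomes and 0.568% and 0.538% in total RNA. With quantile normalization the share was 0.946% in wild type heavy and 1.03% in wild type light polysomes, and 1.04% and 0.999% in total RNA of the AtY34 line and wild type. Without AT1G15405, an alternative chosen after seeing the data, it was 1.12% and 1.09% in total RNA.

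The labels do not say what a replicate number marks, though the column names of same-numbered fractions share a stem. The libraries were not treated as paired, as not every same-numbered pair reached a correlation of 0.1. Such a limit cannot decide whether fractions came from the same extract. The main fits therefore treat as independent libraries that may be paired. Between fractions of 1 line these correlations ran from -0.0485 to 0.198, and in 13 of 18 cases a library correlated best with its own number, as a hint from the data; between lines they ran from -0.170 to 0.0651, with 4 of 9. In wild type the seed storage sum was highest in replicate 2 of all 3 fractions. With the replicate block, 2 of the 56 genes were called in heavy against light polysomes over both lines and 0 in each of the other comparisons, and no call of the report changed. With a replicate block within each line, chosen after seeing the data and not applicable between lines, 3 were called in heavy against light polysomes over both lines, AT5G02870, RPL18 and PGY1 (adjusted p = 0.0432), and 0 in the other comparisons. The cause of these changes was not tested. Without a block, 4.68% of all genes tested passed in heavy against light polysomes over both lines. Shares of all genes with a block are not given here. Depth is unknown, so values near 0 carry no limit, and the promoter motifs planned were not run.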

Other observations

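The transcript table listed 97 transcripts for the 56 genes. For 29 genes there was 1 transcript, and in 20 of the other 27 a single transcript held over 90% of the gene's TPM on average. AT2G19730 was split most evenly, with 48.8% and 51.2% in its 2 expressed transcripts, and single libraries ran from 9.0% to 90.8% for the first. AT1G01100, AT1G48830, PGY1 and RPL23AB each had a transcript whose share ran from 0 to 100% between libraries, so transcript values of these genes were not compared between groups.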
